A study of Homo sapiens with 6 samples.

Results

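The 9 genes described here belong to the NRF2 antioxidant response: the transcription factor NFE2L2 (which encodes NRF2), its inhibitor KEAP1, and the enzyme genes NQO1, HMOX1, GCLC, GCLM, TXNRD1, SRXN1 and PRDX1. They were chosen by symbol from a table of 19571 genes, and each of the 9 symbols matched 1 row. The RNA came from LNCaP, a line of human prostate cancer cells that responds to androgen. Stable lines carried Flag-tagged wild-type KDM4B, a histone demethylase, in 3 libraries (replicates 1, 2 and 4), or a plenti6 control plasmid in 3 vector libraries (replicates 1, 2 and 3). Every culture was kept for 3 days in RPMI with 10% CFBS, an abbreviation the labels do not spell out. What promoter drove the transgene, how many clones made up a line and whether replicates were separate cultures is not stated in the labels, so p-values measure only the spread between these libraries, which may be technical. The titles of all KDM4B libraries end in a shared tag that no vector title carries, and its meaning is not given. Any difference in preparation or sequencing between the groups cannot be told apart from the effect of the plasmid.

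NRF2 is a basic leucine zipper factor that pairs with small MAF proteins at antioxidant response elements in DNA. KEAP1 holds NRF2 for ubiquitination by a CUL3 ligase, and oxidants or electrophiles that modify KEAP1 let newly made NRF2 accumulate, so NRF2 is controlled largely at the protein level, which RNA does not show. Its targets make glutathione, reduce thioredoxin and peroxides, detoxify quinones, degrade haem and supply NADPH. BACH1 competes for the same DNA elements and represses HMOX1 most strongly.

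The label check and the scale of the libraries bear on every value below. KDM4B itself measured 26.33, 27.17 and 25.76 FPKM (fragments per kilobase of transcript, scaled to the fragments mapped in the library) in the KDM4B-labelled libraries, and 24.73, 25.15 and 25.28 FPKM in those with vector. KDM4B was 1.05-fold higher as deposited (limma, adjusted p = 0.113) and 1.25-fold higher on the scaled values defined below (28.2 to 29.1 against 22.7 to 23.2; adjusted p = 1.93e-05), with no overlap on either scale. Such results were common: scaled, 34.0% of all tested genes rose, and groups did not overlap for 76.3% as deposited and 71.7% scaled. The KDM4B transcript thus does not by itself bear out the label, and directions rest on the labels. Ribosomal RNA genes made up 8.14% to 10.5% of all FPKM with the KDM4B label and 0.144% to 0.473% in the vector libraries, where replicate 1 was the highest and replicates 2 and 3 were at 0.144% and 0.147%. The median log2 fold change of all 12148 genes tested was -0.22 as deposited and 0.00 after each library was divided by its median ratio to the geometric mean of the libraries ("scaled" below). The part of ribosomal RNA in that shift and in the results below was not tested. All 11 luminal prostate markers were at 1 FPKM or more in every library, with sums of 1820 to 1882 FPKM against 4415 to 4597 FPKM. Of 4 basal markers 2 were in the table, with sums of at most 0.46 FPKM. The 5 stromal markers in the table summed to 12.5 to 16.5 FPKM against 5.77 to 6.47 FPKM, mostly ACTA2. The 4 leukocyte markers in the table summed to 4.34 to 5.46 against 4.51 to 5.13 FPKM. Most of that was LYZ (2.37 to 3.43 FPKM over all libraries) and CD68 (1.72 to 2.33 FPKM). PTPRC was at 0.06 FPKM or less and CD3E at 0.08 FPKM or less. The 2 endothelial markers in the table summed to at most 1.01 FPKM. The part of these markers in the results below was not tested either.

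The members did not move as a block. GCLC, NQO1 and PRDX1 were higher in the KDM4B-labelled libraries on both scales, GCLM was lower on both, and NFE2L2 and KEAP1 followed the shift of all genes. In RNA from bulk cultures, fewer cells of a type and less RNA per cell cannot be told apart. As deposited 3 of 9 members rose and 4 fell (limma, adjusted p below 0.05), where 13.4% of all tested genes rose and 60.3% fell. Scaled, 5 rose and 2 fell, where 34.0% of all tested genes rose and 34.0% fell. The median log2 fold change of the members was -0.08 as deposited and 0.16 scaled. GCLC and NQO1 were at least 2-fold higher on both scales, as were 1.25% of tested genes as deposited and 1.76% scaled. FPKM as deposited did not overlap between the groups for any of the 9 members, against 76.3% of all tested genes. Scaled, 6 of the 9 did not overlap, against 71.7%.

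**Figure D1:**
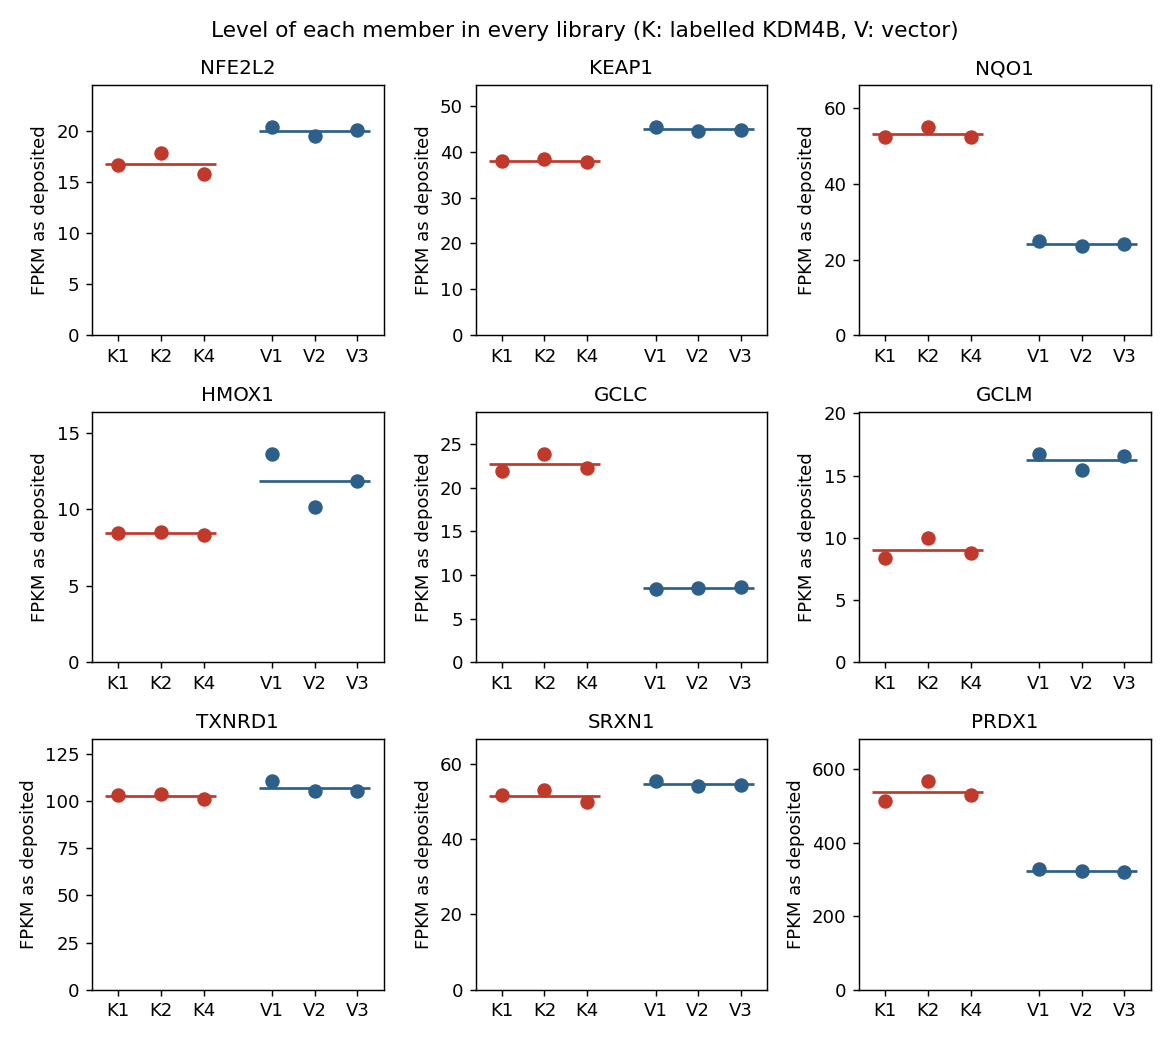
FPKM as deposited of the 9 members in each library (K1, K2 and K4 labelled KDM4B; V1 to V3 vector), with axes from 0 and a line at each group mean. GCLC and NQO1 are more than 2-fold higher in the K libraries on both scales, and HMOX1 spreads most among the vector libraries (10.13 to 13.61 FPKM).

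NFE2L2 (gene 4780, chromosome 2) measured 16.70, 17.88 and 15.77 FPKM in the KDM4B-labelled libraries and 20.45, 19.54 and 20.16 FPKM in those with vector. All 3 vector libraries were higher, and the gene fell by 0.24 on the log2(FPKM + 1) scale (SE 0.050; limma, adjusted p = 0.000883). That is close to the median of all genes. Scaled, the groups overlapped and the difference was -0.01 (95% interval -0.11 to 0.08; adjusted p = 0.801). An interval this narrow leaves out a change of 2-fold in the NFE2L2 transcript relative to other genes, but says nothing of the NRF2 protein.

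KEAP1 (9817, chromosome 19), the substrate adaptor that presents NRF2 to the ligase, measured 37.96, 38.35 and 37.80 FPKM against 45.42, 44.42 and 44.75 FPKM. Its KDM4B-labelled replicates were the tightest of the members, with a coefficient of variation of 0.744%. Its log2 fold change was -0.23 (SE 0.035; limma, adjusted p = 0.000102) as deposited and 0.01 scaled (95% interval -0.07 to 0.08; adjusted p = 0.875). NFE2L2 and KEAP1 thus kept nearly the same proportion to each other: KEAP1 stood at 2.27-fold the FPKM of NFE2L2 in the KDM4B-labelled libraries and 2.24-fold in the vector libraries.

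NQO1 (1728, chromosome 16) encodes the quinone reductase that is among the most used reporters of NRF2 activity. It measured 52.31, 55.08 and 52.36 FPKM in the KDM4B-labelled libraries and 24.82, 23.69 and 24.06 FPKM in those with vector. The lowest library labelled KDM4B was above 2 times the highest vector library. The group means were 53.3 ± 1.59 and 24.2 ± 0.58 FPKM (SD, n = 3 each). The log2 fold change was 1.11 (SE 0.040; limma, adjusted p = 8.95e-10) as deposited and 1.34 scaled (SE 0.034; adjusted p = 7.65e-10). Of 12148 tested genes it had the 126th highest scaled change.

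Glutamate-cysteine ligase makes the rate-limiting step of glutathione synthesis from a catalytic subunit, GCLC, and a modifier subunit, GCLM, and its 2 genes went in opposite directions. GCLC (2729, chromosome 6) measured 21.95, 23.89 and 22.29 FPKM in the KDM4B-labelled libraries and 8.41, 8.53 and 8.70 FPKM in those with vector. This was the largest change among the members, 2.66-fold as deposited and 3.15-fold scaled by the group means. Its log2 fold change was 1.31 (SE 0.046; limma, adjusted p = 7.44e-10), and 1.54 scaled (SE 0.039; adjusted p = 7.65e-10).

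GCLM (2730, chromosome 1) measured 8.39, 9.97 and 8.78 FPKM against 16.74, 15.46 and 16.56 FPKM in those with vector. Every library labelled KDM4B was below every vector library on both scales. As deposited it fell by 0.78 in log2 (SE 0.061; limma, adjusted p = 4.27e-07) and by 0.56 scaled (SE 0.054; adjusted p = 7.57e-06). The FPKM ratio of GCLC to GCLM, chosen after its values were seen, does not depend on how a library was scaled. It was 2.62, 2.40 and 2.54 in the KDM4B-labelled libraries and 0.502, 0.552 and 0.525 in the vector libraries, so the order of the subunit transcripts by FPKM was turned around. On the log2(FPKM + 1) scale the ratio differed by 2.09 (exact permutation test, two-sided, p = 0.1, the smallest that 3 libraries against 3 can give).

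HMOX1 (3162, chromosome 22), the inducible haem oxygenase and a classical target of both NRF2 and BACH1, measured 8.43, 8.51 and 8.32 FPKM against 13.61, 10.13 and 11.85 FPKM. Its vector libraries had the widest spread of any member, a coefficient of variation of 14.7%, with replicate 1 the highest. It fell by 0.44 (SE 0.080; limma, adjusted p = 0.000388) as deposited and by 0.22 scaled (SE 0.082; adjusted p = 0.0356). Scaled values overlapped, at 9.04 to 9.33 in the KDM4B-labelled libraries and 9.29 to 12.5 in the vector libraries. The HMOX1 call on scaled values did not hold without vector replicate 1 (-0.12, adjusted p = 0.127) and when any single other library except vector replicate 2 was left out (adjusted p = 0.061 to 0.0856). It was also lost with a replicate block, a term for each replicate number (adjusted p = 0.0818). Under that block only replicates 1 and 2 of each group inform the difference, since numbers 3 and 4 each occur in a single group. As deposited, the difference was -0.34 without vector replicate 1 (adjusted p = 0.00074).

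The 3 members of the thioredoxin arm form a chain: TXNRD1, the cytosolic thioredoxin reductase, keeps thioredoxin reduced, thioredoxin restores the peroxidase PRDX1, and SRXN1 (sulfiredoxin) repairs over-oxidised PRDX1. PRDX1 (5052, chromosome 1) was the most abundant member in every library. It measured 514.79, 568.50 and 529.32 FPKM in the KDM4B-labelled libraries and 327.45, 324.58 and 321.85 FPKM in those with vector. The difference was 0.72 on the log2 scale (SE 0.039; limma, adjusted p = 1.89e-08), and 0.97 scaled (SE 0.029; adjusted p = 1.94e-09). The gene has processed pseudogenes, and how reads shared with them were assigned is not stated in the labels, so its level is less certain than those of the others.

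TXNRD1 (7296, chromosome 12) measured 103.30, 103.87 and 101.01 FPKM against 110.69, 105.18 and 105.39 FPKM, and SRXN1 (140809, chromosome 20) measured 51.72, 53.05 and 50.04 FPKM against 55.52, 54.11 and 54.43 FPKM. Both were slightly below the vector libraries as deposited and above them once scaled. TXNRD1 went from -0.06 (95% interval -0.14 to 0.02; limma, adjusted p = 0.153) to 0.18 (0.11 to 0.26; adjusted p = 0.000639). SRXN1 went from -0.08 (95% interval -0.16 to -0.00034; limma, adjusted p = 0.0653) to 0.16 (0.09 to 0.23; adjusted p = 0.00151). As deposited, SRXN1 passed the test without KDM4B replicate 2 (-0.10, adjusted p = 0.0304) and with no filter on low genes (adjusted p = 0.0455), which makes 5 members lower. On either scale neither came near the size of the PRDX1 difference, and the ratio of PRDX1 to SRXN1, chosen after its values were seen, averaged 10.4 in the KDM4B-labelled libraries and 5.94 in those with vector.

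**Figure D2:**
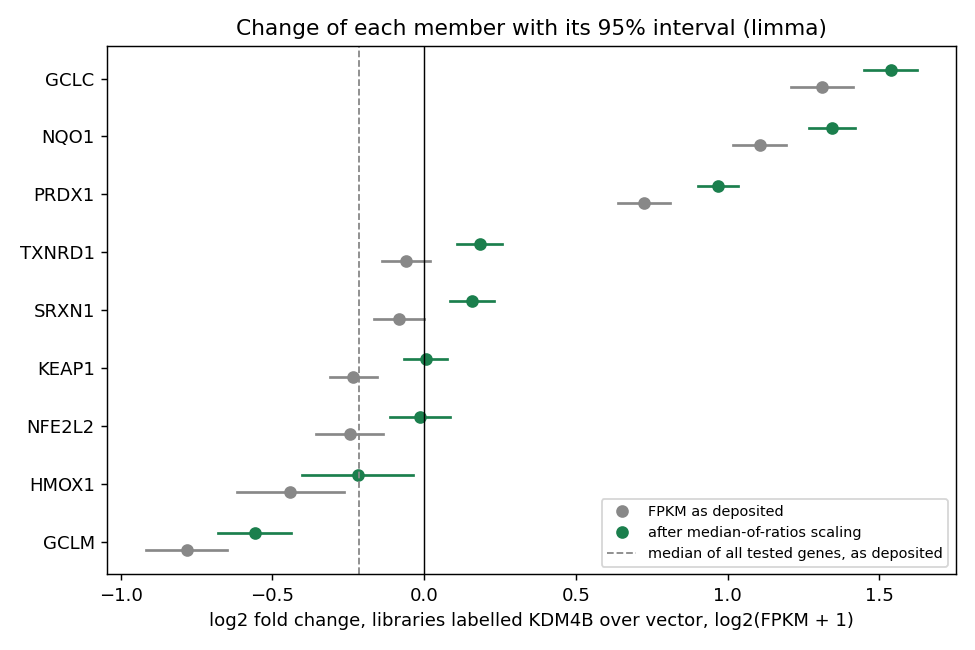
Log2 fold change of the 9 members with 95% intervals (limma), as deposited in grey and scaled in green, with the median of all tested genes as deposited (-0.22) as a dashed line. GCLC, NQO1 and PRDX1 lie right of 0 and GCLM and HMOX1 left of 0 on both scales, TXNRD1 and SRXN1 change side with the scale, and KEAP1 and NFE2L2 sit at 0 once scaled.

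The order of the levels shifted with these differences. In the vector libraries the order by mean FPKM was PRDX1, TXNRD1, SRXN1, KEAP1, NQO1, NFE2L2, GCLM, HMOX1 and GCLC, with no overlap between neighbours. In the KDM4B-labelled libraries it was PRDX1, TXNRD1, NQO1, SRXN1, KEAP1, GCLC, NFE2L2, GCLM and HMOX1. GCLC thus went from rank 9 to rank 6, and NQO1 from rank 5 to rank 3. There, NQO1 and SRXN1 overlapped (lowest NQO1 52.31, highest SRXN1 53.05 FPKM), as did GCLM and HMOX1 (8.39 and 8.51 FPKM). Within a group replicates differed little: the coefficient of variation was at most 9.10% (GCLM, libraries labelled KDM4B), except for HMOX1 in the vector libraries.

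Set against NFE2L2 within each library, the targets spread in both directions. The mean difference in log2(FPKM + 1) from NFE2L2 was higher in the KDM4B-labelled libraries by 1.56 for GCLC, 1.35 for NQO1, 0.97 for PRDX1, 0.19 for TXNRD1 and 0.16 for SRXN1. It was lower for GCLM (difference -0.54) and HMOX1 (-0.20), and stood at 0.01 for KEAP1. The groups were fully separated for 6 of the 8 ratios (exact permutation test, two-sided, p = 0.1 each, 0.133 adjusted over 8 ratios). The share of all genes whose ratio to NFE2L2 separates was not computed. On scaled FPKM, which is another measure, 71.7% of all tested genes separated, so the count is not read as a trait of these targets. By the same exact permutation test HMOX1 (p = 0.2, 0.229 adjusted) and KEAP1 (p = 0.8) did not separate. The smallest p that 3 libraries against 3 allow is 0.1, so none of these ratios could pass 0.05.

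Read counts over single exons gave a further view of the same libraries. The deposited skipped-exon (SE) table gives, for each exon event, a single read count in each library, with both splice forms joined, so it tracks how much of that part of the transcript was read. NFE2L2 and SRXN1 had 0 events in it. All 4 events of GCLC, all 4 of NQO1 and all 3 of PRDX1 had more reads relative to all event reads in every library labelled KDM4B than in any vector library. Across exons the log2 ratio was 1.55 to 1.81 for GCLC, 1.26 to 1.46 for NQO1 and 0.95 to 0.99 for PRDX1. The 10 events of TXNRD1 were all higher, by 0.10 to 0.25, and the groups did not overlap in 8 of them. The 4 of KEAP1 lay between -0.07 and 0.00, and the 2 of HMOX1 at -0.30 and -0.28 with overlapping groups. Exons of 1 gene share transcripts and often reads, so they are not replicates. The share of all SE events whose groups did not overlap was not computed. Of all tested genes 71.7% did not overlap on scaled FPKM, so groups without overlap are common in these libraries.

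On the most-read event of each gene, GCLC had 396, 451 and 389 reads in the KDM4B-labelled libraries and 164, 174 and 151 in the vector libraries (log2 fold change 1.55; edgeR quasi-likelihood test, adjusted p = 1.14e-16). NQO1 had 1118, 1237 and 1070 reads against 503, 455 and 514 (1.43; adjusted p = 1.62e-21). PRDX1 had 8927, 10050 and 9291 against 5477, 5513 and 5545 (0.99; adjusted p = 1.26e-24). These counts put the 3 highest members in the same order as the scaled FPKM. TXNRD1 had 1917, 1953 and 1981 reads against 2126, 1893 and 1833, and passed the test at 0.22 (adjusted p = 0.000552). KEAP1 stood at -0.04 (697, 690 and 712 against 843, 845 and 821 reads; adjusted p = 0.657).

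The GCLM event was thinly covered. It had 101, 99 and 63 reads against 158, 150 and 100, so the groups overlapped, and its difference of -0.42 missed the threshold (edgeR, adjusted p = 0.0501). It passed without KDM4B replicate 1 (-0.54, adjusted p = 0.0274), KDM4B replicate 2 (-0.49, 0.0345) or vector replicate 3 (-0.58, 0.00908), and stood at -0.24 to -0.34 when another library was left out. HMOX1 fell by 0.30 on its event (243, 258 and 294 against 440, 336 and 364 reads; adjusted p = 0.0155), and it missed the threshold without vector replicate 1 (-0.20, adjusted p = 0.178) and without KDM4B replicate 1 or 2 (adjusted p = 0.0822 and 0.0557). In all, 4 of the 7 members with an event rose and 1 fell in this test, where 22.8% of 8556 genes rose and 22.9% fell. Without vector replicate 1 no member fell, and without vector replicate 3 both GCLM and HMOX1 did.

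**Figure D3:**
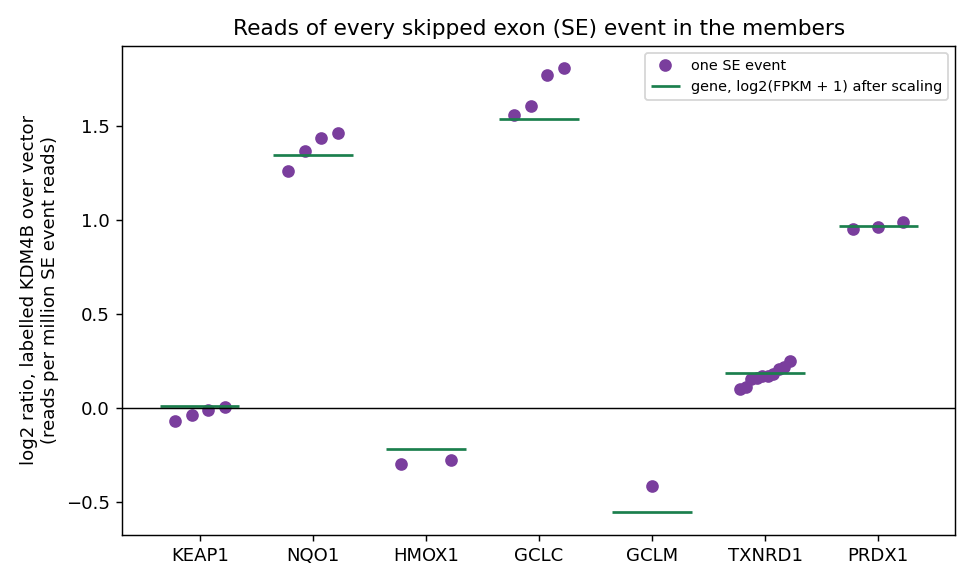
Log2 ratio of SE event reads relative to all SE event reads, labelled KDM4B over vector, for every SE event of the 7 members that have one (points), with the scaled change of the gene as a line. Exons of the same gene lie together: 1.55 to 1.81 for GCLC, 1.26 to 1.46 for NQO1, 0.95 to 0.99 for PRDX1 and near 0 for KEAP1.

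Reads of paired exons could be compared between the groups in NQO1 and KEAP1 only, and no difference in their shares was detected. For NQO1 and KEAP1 the reads of neighbouring exons and of their joint skipping could be separated from sets of events on the same exons. Skipping of the exon pair had 1 read of 5271 in NQO1 over all 6 libraries (0.0190%; exact 95% binomial interval 0.000480% to 0.106%) and 1 of 5987 in KEAP1 (0.0167%; 0.000423% to 0.0930%). These intervals cover counting error only. The reads of an NQO1 exon pair of 102 and 114 bases fell to the first exon at 44.3% ± 1.84 in the KDM4B-labelled libraries and 47.8% ± 1.58 in the vector libraries (SD, n = 3 each; edgeR, adjusted p = 0.620). For a KEAP1 pair of 177 and 206 bases the shares were 50.1% ± 3.20 and 48.9% ± 3.97 (adjusted p = 0.927). Among all such pairs, listed as mutually exclusive, 1.63% were called. The counts do not show whether a transcript holds 1 exon of a pair or both. With skipping this rare, the shares may reflect coverage of both exons, so they cannot decide on a change of splice form. GCLC and HMOX1 had 1 mutually exclusive event each and TXNRD1 had 6, whose forms could not be separated in this way and were not tested.

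At alternative 5' splice sites, 3 events of PRDX1 and 2 of TXNRD1 were tested against the summed SE reads of their gene. These counts also join both forms, so they compare the reads at the event with those of the rest of the gene, not the use of the alternative site. None passed (edgeR, adjusted p = 0.690 to 0.973), where 3.69% of all 1193 such events were called. None had an unadjusted p below 0.05 either (0.263 to 0.875), and DESeq2 called 0 of the 5. The members had 0 retained-intron events. No test of a choice between splice forms was thus made for any member.

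Promoter sequences were searched for the core of the antioxidant response element, the DNA site that NRF2 binds with its MAF partners, since the members moved apart. The RefSeq promoter table (GRCh38.p14, 250 bases before to 50 after a gene's start) holds 10 promoters of 7 members. PRDX1 and HMOX1 are not among them. The letters TGACNNNGC, on either strand, were found in 4 of the 10 promoters and in 13.3% of all 35116 promoters. The 4 were those of GCLM and TXNRD1 and the downstream promoter of KEAP1. No match was found in this window for GCLC, NQO1, SRXN1 or NFE2L2. None of the 10 promoters held the AP-1 motif TGACTCA, which can overlap the core. It occurred in 4.95% of all promoters and in 8.36% of those with a core match. The stretches below are from GCLM, which fell, and from TXNRD1 and KEAP1, which moved little once scaled, each read 5′ to 3′ on the gene's strand with the match in capitals.
GCLM, chr1:93909440-93909480, minus strand: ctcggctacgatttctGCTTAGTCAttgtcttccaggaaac
TXNRD1 upstream promoter, chr12:104215664-104215704, plus strand: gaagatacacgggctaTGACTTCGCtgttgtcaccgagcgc
TXNRD1 downstream promoter, chr12:104286914-104286954, plus strand: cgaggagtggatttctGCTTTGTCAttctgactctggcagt
KEAP1, chr19:10502778-10502818, minus strand: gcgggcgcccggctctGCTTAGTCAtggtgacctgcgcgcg

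The GCLM and KEAP1 matches both read TGACTAAGC on the opposite strand, and they begin 34 and 31 bases before a start of their gene. For KEAP1 this is the start of its downstream promoter, and its upstream promoter held 0 matches. GCLM fell in these libraries and KEAP1 did not differ once scaled. A further match lies near the first TXNRD1 stretch and another beside the KEAP1 one. A match of these letters is a description of the sequence, and none in this window says nothing of binding farther away.

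The other genes of the pathway were taken from lists of 150 genes in 7 groups. In all 116 were tested: 18 rose and 72 fell as deposited (median log2 fold change -0.24), and 51 rose and 49 fell scaled (median -0.02). As deposited these shares lie near those of all tested genes (13.4% and 60.3%), and scaled both lie above theirs (34.0% each). The counts of each list below are to be read beside the same shares, and beside medians of -0.22 and -0.0013 for all tested genes. Without vector replicate 1, the library with the most ribosomal RNA in its group, 18 rose and 68 fell as deposited and 46 and 48 scaled.

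Among the regulators 4 rose and 9 fell of 18 tested (9 and 6 scaled; median -0.15 and 0.09). NFE2L1, an NRF2 relative that controls proteasome genes, fell from 88.2 ± 1.57 to 48.2 ± 0.72 FPKM (SD, n = 3 each; -0.86, and -0.62 scaled). SQSTM1, the autophagy receptor p62 that binds KEAP1, fell from 251 ± 2.80 to 143 ± 3.49 FPKM (-0.81, and -0.56 scaled). RBX1, the RING subunit of the KEAP1 ligase, measured 43.2 against 40.8 FPKM (0.08, adjusted p = 0.0774; it passed at 0.32 scaled). Among genes outside the naming rule, singled out for their role after values were seen, BACH1 fell from 5.97 to 4.08 FPKM (-0.46, and -0.25 scaled). The small MAF genes MAFG and MAFK fell too (-0.39 and -0.43, and -0.17 and -0.20 scaled), while CUL3 rose from 7.94 to 9.52 FPKM (0.24, and 0.45 scaled).

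Glutathione genes had the lowest median of the lists, at -0.43 (-0.20 scaled), against -0.22 (-0.0013 scaled) for all tested genes. Of 26 tested 3 rose and 18 fell (8 and 15 scaled), where 13.4% of all tested genes rose and 60.3% fell (34.0% each scaled). Without vector replicate 3, or with no filter on low genes, 1 rose as deposited. SLC7A11, the cystine importer that feeds glutathione synthesis and is a target of both NRF2 and ATF4, fell from 36.3 ± 2.49 to 11.1 ± 1.04 FPKM (-1.63, SE 0.067; limma, adjusted p = 2.41e-09; -1.40 scaled). CHAC1, which degrades glutathione and is an ATF4 target, fell from 40.5 ± 6.63 to 12.9 ± 1.57 FPKM (-1.58, and -1.35 scaled). GSTA1, a glutathione transferase, rose from 2.79 ± 0.21 to 7.09 ± 0.51 FPKM (1.09, and 1.29 scaled), although its near-identical relatives may share reads. The abundant peroxidases differed less: GPX4 measured 254 against 288 FPKM (-0.18, and 0.07 scaled) and GPX1 220 against 268 FPKM (-0.28, and -0.04 scaled, where it missed the threshold at adjusted p = 0.194). MGST1 measured 146 against 152 FPKM (-0.06, adjusted p = 0.255, and 0.19 scaled, where it passed). The scaled GPX4 call (adjusted p = 0.0404) was lost when any single library other than KDM4B replicate 4 was left out (0.0644 to 0.113). The transferases GSTP1, GSTM1, GSTM2, GSTM4 and GSTM5 were all under the filter. GCLC was higher in the same libraries in which SLC7A11 and GCLM were lower.

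In the thioredoxin and peroxide list 5 rose and 12 fell of 21 tested (11 and 5 scaled; median -0.12 and 0.12). As deposited, 2 rose without vector replicate 3 or with a replicate block, and 3 without KDM4B replicate 2 or with no filter on low genes. TXNIP, an inhibitor of thioredoxin, fell from 238 ± 2.74 to 99.0 ± 6.65 FPKM (-1.26, and -1.02 scaled). Of the most abundant genes, PRDX2 measured 365 against 337 FPKM (0.11, and 0.36 scaled), SOD1, a cytosolic superoxide dismutase, 246 against 228 FPKM (0.11, and 0.35 scaled), and PRDX6 222 against 262 FPKM (-0.24, and 0.00 scaled, where it missed the threshold at adjusted p = 0.881). As deposited, PRDX2 missed the threshold without vector replicate 3 or KDM4B replicate 2 (adjusted p = 0.104 and 0.0802) and SOD1 without vector replicate 3 (0.0545). Both were also lost with a replicate block (0.0986 and 0.112). PRDX2 was lost as well with no filter on low genes (limma, adjusted p = 0.0733) and in limma without a trend (0.0649). The 3 differences were smaller than the 0.72 (0.97 scaled) of PRDX1. The sestrins SESN1 and SESN3, stress proteins outside the naming rule and singled out after their values were seen, rose from 17.9 to 30.6 FPKM and from 19.7 to 32.4 FPKM (0.97 and 0.92 scaled). The third sestrin of the list, SESN2, fell from 39.05 to 20.6 FPKM (-0.89, and -0.65 scaled).

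The NADPH list gave 2 rises and 10 falls of 15 tested (7 and 7 scaled; median -0.29 and -0.05), with 1 rise as deposited under a replicate block. MTHFD2, a mitochondrial folate enzyme, fell from 126 ± 7.88 to 48.8 ± 1.15 FPKM (-1.35, and -1.11 scaled). IDH1, the cytosolic isocitrate dehydrogenase, fell from 273 to 166 FPKM (-0.71, and -0.47 scaled). The pentose phosphate enzymes TKT (224 against 202 FPKM; 0.15, and 0.39 scaled) and TALDO1 (144 against 183 FPKM; -0.35, and -0.10 scaled) went in opposite directions. Scaled, TALDO1 missed the threshold without vector replicate 1 (-0.08, adjusted p = 0.0585).

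Quinone, carbonyl and xenobiotic enzymes other than NQO1 gave 2 rises and 12 falls of 18 tested (7 and 9 scaled; median -0.30 and -0.08), with 1 rise as deposited without KDM4B replicate 2. EPHX1, the microsomal epoxide hydrolase, rose from 165 to 199 FPKM (0.27, and 0.51 scaled). AKR1A1, an aldehyde reductase, fell from 159 to 96.1 FPKM (-0.72, and -0.48 scaled), and ESD, an esterase, measured 77.2 against 76.3 FPKM (0.02, adjusted p = 0.704; 0.26 scaled, where it passed). The NRF2 targets AKR1C1, AKR1C2, AKR1C3 and AKR1B10 were under the filter, with means of at most 0.44 FPKM in either group. NQO2, the paralog of NQO1 and outside the naming rule, fell by 0.59 in log2 as deposited (-0.35 scaled), while NQO1 rose.

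Haem and iron genes gave 2 rises and 9 falls of 14 tested (7 and 5 scaled; median -0.13 and 0.11). The ferritin subunits were abundant: FTH1 measured 1115 ± 36.4 against 1206 ± 7.39 FPKM (-0.11, and 0.13 scaled), and FTL 250 ± 3.35 against 321 ± 2.74 FPKM (-0.36, and -0.12 scaled). The FTH1 call as deposited was lost with a replicate block (adjusted p = 0.129). BLVRB, a biliverdin reductase downstream of haem oxygenase, fell from 155 to 104 FPKM (-0.57, and -0.33 scaled). HMOX2, the constitutive haem oxygenase and outside the naming rule, rose from 23.0 to 28.9 FPKM (0.32, and 0.55 scaled) while HMOX1 measured 8.42 against 11.9 FPKM. Of 4 exporter genes tested 0 rose and 2 fell (2 and 2 scaled; median -0.38 and -0.16; 1 rise as deposited without vector replicate 1): ABCC4 fell from 150 ± 7.34 to 59.9 ± 2.46 FPKM (-1.31, and -1.06 scaled) and ABCC1, a glutathione conjugate pump, from 38.9 to 21.5 FPKM (-0.83, and -0.59 scaled). ABCC5 measured 23.4 against 21.4 FPKM (0.13, adjusted p = 0.0888; 0.36 scaled, where it passed).

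**Figure D4:**
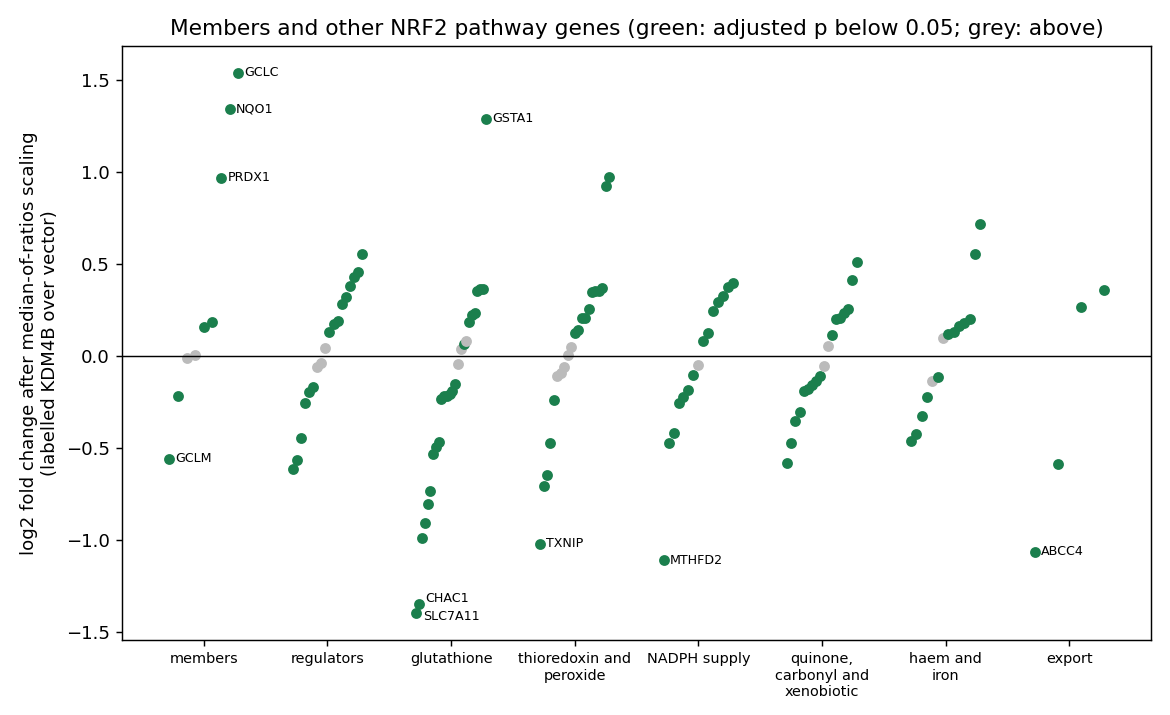
Scaled log2 fold change of each tested gene of the members and of the 7 other lists (green: adjusted p below 0.05; grey: above). GCLC (1.54) and NQO1 (1.34) lie above every gene of the other lists, GSTA1 (1.29) being the next, and SLC7A11 (-1.40) and CHAC1 (-1.35) lie lowest; as deposited the values are about 0.2 lower.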

How the data were processed

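Gene expression was taken from 6 RNA-seq libraries, for which the authors deposited FPKM values per gene, per the file headers, and raw read counts per splicing event. The submitters' processing notes list the builds hg38 and GRCh38 and the tools StringTie, HISAT and Cufflinks, with no role or version. The build of the event positions is uncertain, so none is printed. Log2(FPKM + 1) was, for the 12148 genes averaging 1 FPKM or more, tested with limma 3.58.1 (R 4.3.3, two-sided, mean-variance trend, Benjamini-Hochberg over all tested genes, threshold 0.05). Fold changes on this scale understate the change of low genes. Scaling divided each library by its median of ratios (0.904 to 0.942 for the libraries labelled KDM4B, 1.09 for each vector library). Event read counts were tested with edgeR 4.0.16 (TMM, at least 10 reads per library; DESeq2 1.42.0 as an alternative), and splice forms in a model of library, form and the form-by-group term. SE reads summed to 14212396 to 17021204 per library, over events that share reads. Forms were recovered from sets of 2 SE events and 1 mutually exclusive event (99.98% of values even and not negative). Replicates differed by more than sampling noise (chi-square per degree of freedom 2.10 to 2.51 within groups), and no library copied another. The limma and edgeR fits were tested on simulated data. The members and lists were chosen with earlier results of these data known. Named genes were all members, the 3 genes of each list with the highest mean FPKM, and those past the test and 2-fold on both scales.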

Additional observations from a re-analysis of the deposited data

How the results depend on the processing

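The counts of members depended on the scale of the libraries. As deposited 3 members were higher and 4 lower, and both median-of-ratios scaling and rescaling to the same FPKM sum without ribosomal RNA genes gave 5 and 2. Counts of other pathway genes that were higher went from 18 to 51 and 47 under the same settings. The scaling alternatives turned KEAP1 to 0.00598 (median of ratios), TXNRD1 to 0.18 and 0.17, SRXN1 to 0.16 and 0.15, GPX4 to 0.066 and 0.056, MGST1 to 0.19 and 0.18, PRDX6 to 0.00 (0.0047, median of ratios) and FTH1 to 0.13 and 0.12. Scaled, leaving out single libraries gave 1 to 2 lower members, and the replicate block gave 1, since HMOX1 missed the threshold. GCLC, NQO1, PRDX1 and GCLM kept their direction and call in limma under every alternative run. Event reads gave 0 to 2 lower members when single libraries were left out, and 2 with event totals in place of TMM or without a filter on low counts, through GCLM. A pseudocount of 0.1 moved the NFE2L2-based log2 ratios of NQO1 and GCLC from 1.35 and 1.56 to 1.39 and 1.66. The replicate numbers 1 and 2 occur in both groups, and the labels do not say whether a number marks a shared culture or day. The correlation of deviations from the group means was -0.02 for number 1 and 0.13 for number 2. Pairs of libraries with different numbers ran from -0.15 to 0.10, so these values do not show a pairing. The replicate block, in which only replicates 1 and 2 of each group inform the difference, left the counts of members as deposited at 3 and 4. As deposited, 5 were lower with no filter or without KDM4B replicate 2, through SRXN1. The NQO1 and KEAP1 exon shares and the 5 alternative 5' splice site events gave 0 calls under every alternative run. Neither kind of count shows a choice between splice forms. With 3 libraries a group, no exact test of a single ratio can reach 0.05, and the GCLM event had only 63 to 158 reads per library.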
